A study of Mus musculus with 5 samples.

Results

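NEUROD2 binding was examined at the 10 genes of the L1 and contactin families of neuronal adhesion molecules, among 21938 protein-coding genes. The members were chosen by name: Nrcam, Nfasc, Chl1 and L1cam of the L1 family, and Cntn1, Cntn2, Cntn3, Cntn4, Cntn5 and Cntn6 of the contactin family. The data came from ChIP-Seq, in which an antibody pulls down a protein together with the DNA it is crosslinked to, and that DNA is sequenced. Cerebral cortices of 5 untreated BALB/c littermates of either sex were taken at postnatal day 0 (P0) and pooled, and NEUROD2 was precipitated with 3 antibodies (ab168932, ab104430 and ab109406, here antibodies 1, 2 and 3), with 1 library each. A ChIP with an unrelated GFP antibody served as the control when the authors called peaks, and the library of input DNA entered no comparison. The cortex holds many cell types, and the peaks do not tell in which of them a site was bound. The 3 antibodies were the only replication, and whether each was used on its own pool of mice is not stated, so that the values of the antibodies are given side by side without a standard deviation over mice.

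NEUROD2 is a basic helix-loop-helix transcription factor of postmitotic excitatory neurons of the cortex. Factors of this class bind as dimers to the E-box, the sequence CANNTG, in which N is any base. Proteins of the L1 family span the membrane, carry immunoglobulin and fibronectin domains on the outside and bind ankyrin on the inside, which ties them to the spectrin and actin cytoskeleton. Contactins carry similar domains on the outside but have no intracellular part, since a lipid (GPI) anchor holds them to the membrane. Both families act in axon growth, fasciculation and guidance, and several members assemble the axon initial segment, the node of Ranvier and the paranode.

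A gene's span was taken as its annotated body in GRCm38 (mm10) plus 10 kb on each side. Peaks of the 3 antibodies that overlapped by 1 bp or more were joined into 1 site, and a site with a peak of each antibody is called a shared site. The lists held 5202, 11196 and 3164 peaks of antibodies 1, 2 and 3, which formed 12637 merged sites, 2088 of them shared. Each peak has a MACS score, minus 10 times the log10 of its p, with a lowest value of 50 and a highest of 3100 in these lists. The read depth is unknown from the lists, and scores rise with depth, so that a score of one antibody is not on the scale of another. Ranks are therefore given within each antibody's list. The summed score, which the authors' table also holds, adds the antibodies without scaling and gives the most weight to antibody 2, and it is given beside those ranks as a description. Where a gene has no site, no peak reached the authors' threshold, which does not show that NEUROD2 was absent.

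NEUROD2 sites were found at 5 of the 10 genes, namely Nrcam, Nfasc, Chl1, Cntn2 and Cntn5. Shared sites were found at Nrcam, Nfasc, Chl1 and Cntn2. No peak passed the threshold in the spans of L1cam, Cntn1, Cntn3, Cntn4 and Cntn6. Of all protein-coding genes, 35.2% had a merged site and 7.52% a shared site in the same kind of span. The members are long genes, with a median span of 301.9 kb against 37.42 kb for all protein-coding genes, so these shares do not compare like with like. For each member, the protein-coding genes with a span within 25% of its own were therefore taken as a background of similar span. By the shares of those genes, 6.47 of 10 would have a site and 2.36 a shared site.

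The 10 spans held 16 sites, 8 of them shared. The authors' table of shared sites lists the same 8 regions with the same limits and summed scores, and names a member gene for 7 of them. Summed over the members, genes of similar span held on average 19.2 sites and 3.54 shared sites. When spans within 50% were taken as similar, the values were 16.8 and 3.16, so the distance of the 16 sites from this background depended on that choice. Values below are for spans within 25%. The 4 L1 family genes held 13 sites, 7 of them shared, against 5.18 and 0.908 at genes of similar span. Nfasc made up the whole of this excess in sites, since Nrcam, Chl1 and L1cam together held 4 sites and 2 shared sites, against 3.91 and 0.687. The 6 contactin genes held 3 sites, 1 of them shared, against 14.1 and 2.63. Nfasc accounted for 9 of the 16 sites, and without it the other 9 genes held 7 sites and 3 shared sites, against 18.0 and 3.32. Per 100 kb of span, the members held 0.372 sites and 0.186 shared sites, and all protein-coding genes 0.857 and 0.131. Without Nfasc the members held 0.170 and 0.0731. This density fell with span over all genes, from 1.28 sites per 100 kb in the shortest class to 0.387 in the longest, so that it does not compare genes of unequal length. These are descriptions of 10 chosen genes, and no chance test was made.

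**Figure D1:**
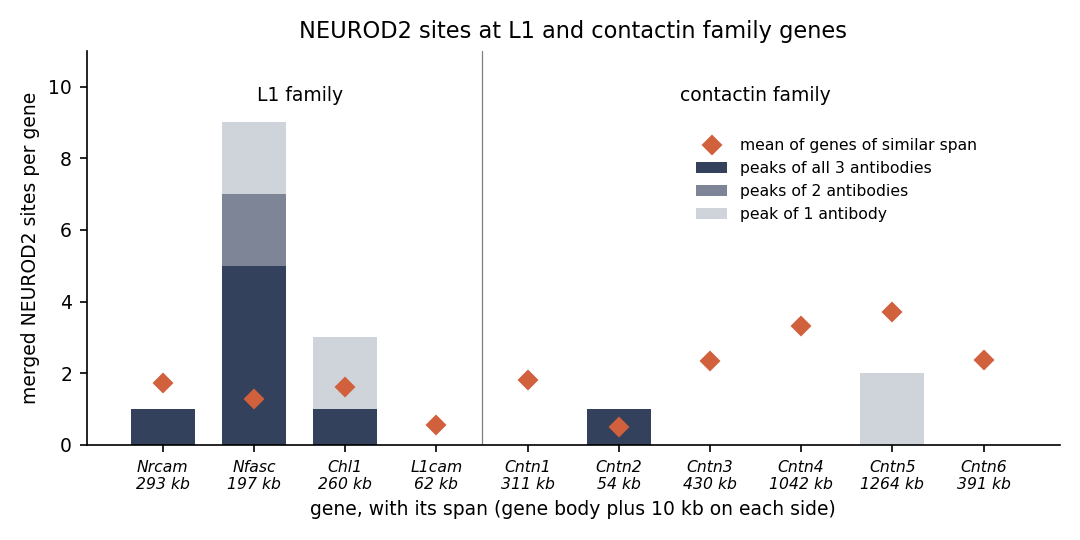
Merged NEUROD2 sites in the span of each gene (y axis, sites per gene), with bars divided by the number of antibodies that had a peak in the site, and diamonds for the mean of protein-coding genes of similar span. Nfasc held 9 sites against a mean of 1.27, while Cntn1, Cntn3, Cntn4 and Cntn6 held none against means of 1.80 to 3.33.

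**Figure D2:**
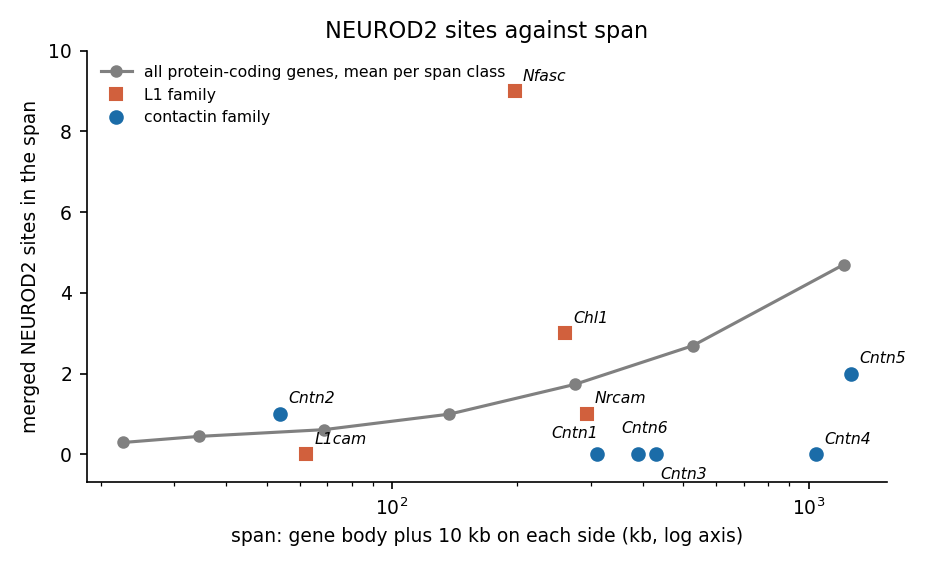
Merged sites per gene (y axis) against span (x axis, kb, log scale) for the 10 genes and, as a grey line, the mean of all protein-coding genes in 7 classes of span. The mean rose from 0.290 sites in the shortest class to 4.70 in the longest, Nfasc lay far above the line, and Cntn4 and Cntn5, the longest of the 10, lay below it.

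The sequences of 4 sites whose centres hold several E-boxes, from strong to weak, are read from the RefSeq GRCm38.p6 assembly on the plus strand, 5′ to 3′, with E-boxes in capitals. All are free of annotated exons. The first is the central 200 bp of the highest scoring site of the families, in intron 24 of Nfasc (chr1:132591544-132591743), with 2 E-boxes. The second is the central 200 bp of the next highest, in intron 2 of Nfasc (chr1:132650831-132651030), also with 2. The third is the central 200 bp of the site upstream of Cntn2 (chr1:132543811-132544010), with 4. The fourth, for contrast, is the central 200 bp of a weak site in intron 27 of Nfasc (chr1:132576974-132577173), which had a peak of antibody 3 alone and holds 5.
Nfasc intron 24: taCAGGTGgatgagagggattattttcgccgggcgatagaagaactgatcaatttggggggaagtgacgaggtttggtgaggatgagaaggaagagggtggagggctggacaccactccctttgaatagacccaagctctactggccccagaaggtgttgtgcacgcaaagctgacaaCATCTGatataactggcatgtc
Nfasc intron 2: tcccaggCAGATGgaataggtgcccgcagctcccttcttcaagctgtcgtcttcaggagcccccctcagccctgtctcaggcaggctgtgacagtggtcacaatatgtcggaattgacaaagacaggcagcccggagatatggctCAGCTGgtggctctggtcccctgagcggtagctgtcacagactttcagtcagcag
Cntn2 upstream: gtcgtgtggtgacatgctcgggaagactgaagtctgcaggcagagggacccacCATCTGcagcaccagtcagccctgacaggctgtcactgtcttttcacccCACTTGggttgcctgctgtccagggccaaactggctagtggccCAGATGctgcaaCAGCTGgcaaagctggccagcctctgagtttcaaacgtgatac
Nfasc intron 27, antibody 3 alone: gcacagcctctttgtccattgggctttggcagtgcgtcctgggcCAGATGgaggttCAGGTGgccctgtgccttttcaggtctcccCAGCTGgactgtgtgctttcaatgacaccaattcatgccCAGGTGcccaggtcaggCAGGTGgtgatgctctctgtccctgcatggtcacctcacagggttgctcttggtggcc

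Nfasc encodes neurofascin, of which neurons and glia make different splice forms, and the neuronal form anchors sodium channels and other proteins at the axon initial segment and the node. The gene lies on the minus strand (chr1:132564690-132741797), and the introns below are numbered after a transcript model with 30 exons. Its 9 sites, 5 of them shared, correspond to 4.57 sites per 100 kb. Of the 983 other genes of similar span, which held 1.27 sites on average, 7 (0.712%) had 9 or more sites and 3 (0.305%) had 5 or more shared sites. Among all 21938 protein-coding genes, 40 had 9 or more sites and 12 had 5 or more shared sites, Nfasc included in both counts.

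The strongest of these sites lay in intron 24 (chr1:132591093-132592194, 150153 bp downstream of the annotated gene start). Antibodies 1, 2 and 3 gave it scores of 1644.27, 1591.87 and 739.43, which ranked 13th of 5202, 31st of 11196 and 22nd of 3164 peaks. Its summed score of 3975.57 was the 17th highest of the 2088 shared sites. When each score was divided by the length of its peak, the ranks were 73, 73 and 49. It held 9 E-boxes over 1102 bp, and the sequence at its centre is the first printed above.

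The second strongest site lay in intron 2 (chr1:132650533-132651329), 90866 bp from the start. Its scores were 827.4, 1030 and 430.13 with antibodies 1, 2 and 3, with ranks of 97, 102 and 92, and its summed score ranked 92nd among shared sites. A further shared site lay in the same intron, 82026 bp from the start (chr1:132659508-132660033), with scores of 304.98, 418.87 and 244.03. The peaks of the 3 antibodies had their midpoints within 10 bp of each other there, the closest agreement in position among the 8 shared sites. This site was also the one nearest to the annotated Nfasc start, and no peak of any antibody lay between it and that start.

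Both other shared sites were at the 3′ side of the gene. The one inside the last exon (chr1:132569550-132570013) lay wholly in annotated untranslated sequence and had scores of 252.16, 299.22 and 108.59. The other (chr1:132557784-132558697) lay beyond the annotated end of Nfasc, where antibody 1 gave a score of 273.48 and antibody 2 a score of 328.11. Antibody 3 had a pair of peaks there, with scores of 63.79 and 91.5. The deposited table calls this site intergenic and gives it no gene. Its midpoint was 14985 bp from the nearest start of Cntn2 and 28899 bp from the nearest start of an Nfasc transcript, so its assignment to Nfasc rests on the 10 kb margin.

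Of the 4 other Nfasc sites, 2 had peaks of antibodies 1 and 2. In intron 29 (chr1:132570738-132571230) their scores were 59.0 and 105.73, and in intron 4 (chr1:132637269-132637745) 62.07 and 134.23. The site in intron 4 was 416 bp from the start of an internal Nfasc transcript. A peak of antibody 2 alone lay in intron 21 (chr1:132598128-132598499) with a score of 86.8, and the peak of antibody 3 alone in intron 27 (chr1:132576936-132577212) had a score of 55.55, close to the threshold. Thus the scores of the Nfasc sites spanned nearly the whole range seen at the 10 genes, and strong and weak sites were interspersed along the gene.

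**Figure D3:**
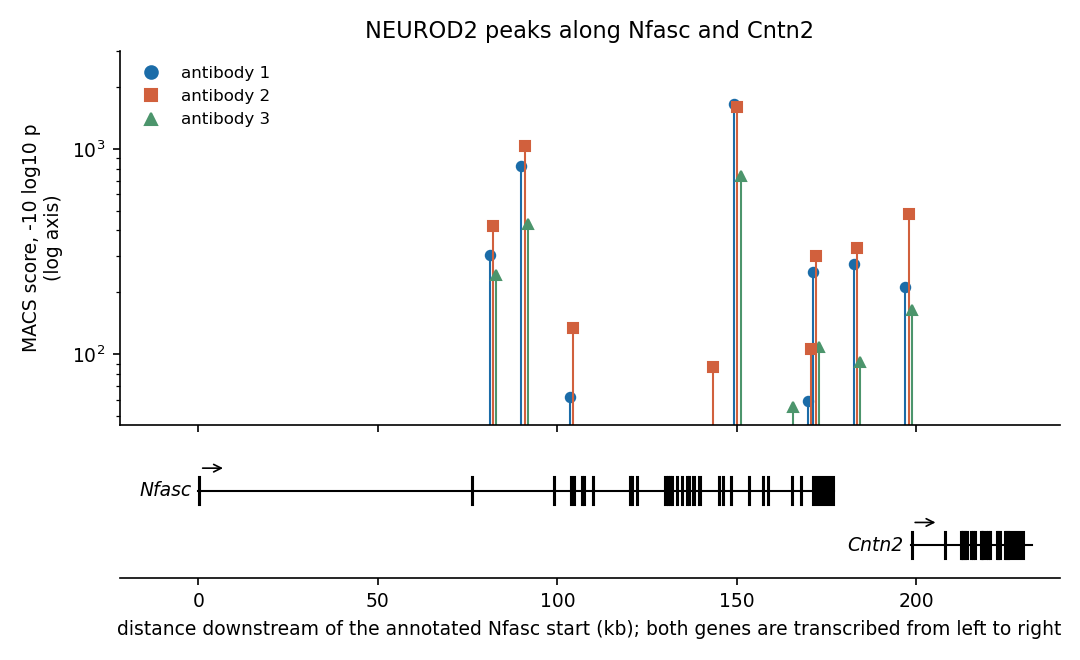
MACS scores of the 3 antibodies (y axis, minus 10 log10 p, log scale) at the sites of Nfasc and Cntn2, against the distance downstream of the annotated Nfasc start (x axis, kb), over the gene models with exons as boxes and arrows for the direction of transcription; the antibodies of a site are drawn slightly apart for legibility. The highest scores stand 150153 bp from the start, no peak lies between the start and the site 82026 bp from it, and the site at the start of Cntn2 follows the Nfasc gene.

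Nrcam encodes a protein of the node and of growing axons that binds ankyrin. It had a single site, a shared one, at the gene start (chr12:44328737-44330200; gene body chr12:44328885-44601964, plus strand). Antibodies 1, 2 and 3 gave scores of 163.3, 727.47 and 155.22, which ranked 1200th of 5202, 226th of 11196 and 559th of 3164 peaks. The summed score of 1045.99, the 395th highest among shared sites, drew 727.47 from antibody 2. The peak of antibody 2 was 1464 bp long, against 499 and 699 bp for antibodies 1 and 3, and reached further into intron 1. Divided by peak length, the scores ranked 3364th, 1896th and 2783rd, so that the position of this site among the peaks depended on the measure. The midpoints of the peaks lay up to 414.5 bp apart, the widest spread among the 8 shared sites. The stretch covered by all 3 peaks (chr12:44328829-44329303) held 3 E-boxes, of which 2 were CAGCTG and lay 106 and 149 bp after the gene start. The 200 bp of intron 1 with the most E-boxes in the site, 4 of them (chr12:44329617-44329816, GRCm38.p6, plus strand, E-boxes in capitals), were covered by the peak of antibody 2 alone.
Nrcam intron 1: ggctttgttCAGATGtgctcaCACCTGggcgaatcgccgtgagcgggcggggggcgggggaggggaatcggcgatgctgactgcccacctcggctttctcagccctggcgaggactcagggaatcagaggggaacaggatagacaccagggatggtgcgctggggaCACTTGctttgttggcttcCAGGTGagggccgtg

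Among the 549 other genes with a span similar to that of Nrcam (293.1 kb), 67.6% had a site and 20.6% a shared site, with a mean of 1.74 sites. The site count of Nrcam was therefore below that mean but equal to the median of those genes, 1.0. Its site was at the promoter rather than within the long introns.

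Chl1, the close homolog of L1, acts in migration and dendrite orientation of cortical neurons and in thalamocortical axon guidance. It had 3 sites, with midpoints at most 2183 bp from its start (gene body chr6:103510586-103750211, plus strand). The shared site covered the first exon (chr6:103510663-103511156), 52 bp from the nearest transcript start, with scores of 97.57, 207.77 and 77.65. By the highest peak of each antibody in a site, it had the lowest score of the 8 shared sites with every antibody, and it ranked 1599th of 2088 by summed score. It held 1 E-box, which lay outside the 177 bp covered by all 3 antibodies. Antibody 2 alone had a peak 2183 bp upstream (chr6:103508321-103508485) with a score of 56.66, and another in intron 1 (chr6:103511990-103512374) with a score of 102.82. Genes of similar span (627 genes) held 1.61 sites on average, and 20.7% of them had a shared site.

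L1cam, the founding member of the family, is needed for growth of the corticospinal tract and the corpus callosum. It lies on the X chromosome (chrX:73853778-73896105, minus strand), and its span of 62.33 kb held no site. The nearest site of any antibody was 188955 bp away. Of 3955 other genes of similar span, 37.5% had a site. Sites were sparse on this chromosome, where 10.3% of 948 protein-coding genes had a site against 36.3% of 20990 genes elsewhere, and 1.05% against 7.81% had a shared site. The part of the chromosome in the result for L1cam was not tested.

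Cntn2, also known as TAG-1, is a contactin of outgrowing axons, among them corticofugal axons of the developing cortex, and later of the juxtaparanode. It was the only contactin gene with a shared site (chr1:132543644-132544178). This site lay wholly upstream of the gene (chr1:132509427-132543256, minus strand), with its nearest edge 387 bp from the gene body and its midpoint 655 bp from the start. Scores were 212.67, 483.16 and 163.83 with antibodies 1, 2 and 3, with ranks of 830, 489 and 511, and the summed score ranked 565th among shared sites. With antibodies 1 and 3 it ranked above the Nrcam site, and with antibody 2 and by the summed score below it. Its 5 E-boxes all fell in the stretch covered by all 3 antibodies, and 3 of them were of the forms CAGATG (or CATCTG, the same form read on the other strand) and CAGCTG. Among 4776 other genes with a span similar to its 53.83 kb, 35.3% had a site and 6.41% a shared site.

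Cntn5, a contactin of auditory and other sensory pathways, is the longest of the genes (chr9:9660891-10904775, minus strand, span 1264 kb). It had 2 sites, each with a peak of 1 antibody near the threshold. Antibody 1 had a peak with a score of 57.72 over the first exon (chr9:10904607-10904795), where the gene Gm32710 also lies. Antibody 2 had a peak with a score of 52.34 in intron 1 (chr9:10663216-10663369), which held no E-box. No shared site lay within 5124291 bp of the gene. Among 55 other genes of similar span, 80.0% had a site and 40.0% a shared site. Their mean was 3.71 sites and their median 2.0, the count of Cntn5. Neither site remained under a score threshold of 100.

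The other contactin genes had no site in their spans. Cntn1, the partner of Caspr at the paranode, has a span of 310.8 kb (gene body chr15:92051165-92341967), and its nearest site was 106136 bp away. Genes of similar span held 1.80 sites on average, and 69.3% of these 505 genes had a site. For Cntn3 (chr6:102162655-102573101, span 430.4 kb), the nearest site was 781793 bp away, and genes of similar span held 2.35. Cntn4 (chr6:105677660-106699310), which acts in olfactory axon targeting, has a span of 1042 kb with 5475 E-boxes, and its nearest site was 393321 bp away. Of the 82 other genes of similar span, 84.1% had a site and 45.1% a shared site, with a mean of 3.33 sites. For Cntn6 (chr6:104492790-104863406, span 390.6 kb), the mean at genes of similar span was 2.38 and the nearest site lay 68807 bp away. The 4 genes thus had no peaks, whereas 69.3% to 84.1% of genes of similar span had at least 1 site.

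Several of these genes are neighbours. Cntn2 and Nfasc lie on the same strand of chromosome 1 with a gap of 21.4 kb, and the 232.4 kb from one to the other held 10 sites, 6 of them shared. The gap itself held 2 of the shared sites, at the Cntn2 start and beyond the Nfasc end. Cntn3, Chl1, Cntn6 and Cntn4 follow each other on chromosome 6, where 4536.7 kb held 7 sites, 2 of them shared. Besides the shared site at the start of Chl1, the other was intergenic between Chl1 and Cntn6 (chr6:104313049-104313349, summed score 1063.93), 179440 bp from Cntn6. Its score was higher than that of the Chl1 site, and it lay outside the span of every member.

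A merged site within 1000 bp of one of its own annotated transcript starts was present at 5 of the 10 members, against 19.6% of all protein-coding genes. Among genes of similar span this share was higher, 21.1% to 37.0% depending on the member, which corresponds to 3.12 of 10 genes. The number of annotated transcripts, 17 at Nrcam and 10 at Nfasc, was not allowed for. At Nrcam, Chl1 and Cntn2 it was a shared site, at Nfasc a site of antibodies 1 and 2 at an internal start, and at Cntn5 a peak of antibody 1. In the RefSeq table of promoters, all 10 genes matched, with 16 promoters. Of these, 10 held an E-box in the 250 bp before the start, as did 66.2% of all 32851 promoters. A peak overlapped 4 of the 16 promoters, 1 each of Nrcam and Chl1 and 2 of Cntn5. The 2 Cntn5 promoters overlap each other and met the same peak of antibody 1, with a score of 57.72. The share of all promoters with a peak was not counted, so this number has no background.

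The antibodies differed in the level of their scores over the whole series, and the 8 shared sites followed that order. Antibody 2 gave the highest score at 7 of the 8, the exception being the site in intron 24 of Nfasc, and at 85.1% of all shared sites. Antibody 3 gave the lowest score at all 8, and at 81.7% of all shared sites. The median score over the 8 sites was 262.82, 451.01 and 159.53 for antibodies 1, 2 and 3, against 166.44, 296.12 and 100.1 over all shared sites. The median summed score was 913.77 at the 8 sites and 571.99 at all shared sites, and 7 of the 8 lay above the latter. The median length was 666 bp against 529 bp, and the median GC content 54.8% against 53.4%. Ranks were also taken by score per bp of peak and averaged over the antibodies as percentiles, with 0 at the top of a list. The site in intron 24 of Nfasc moved from 0.407 to 1.20, the stronger site in intron 2 from 1.89 to 3.25 and the other from 7.73 to 13.1. Cntn2 moved from 12.2 to 23.2, the last exon of Nfasc from 18.0 to 27.6 and Chl1 from 37.0 to 40.5. The largest moves were those of Nrcam, from 14.3 to 56.5, and of the site beyond the end of Nfasc, from 19.8 to 58.3. Thus the 3 sites in introns 24 and 2 of Nfasc stood highest by both measures, and the middle ranks of the others depended on the measure.

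**Figure D4:**
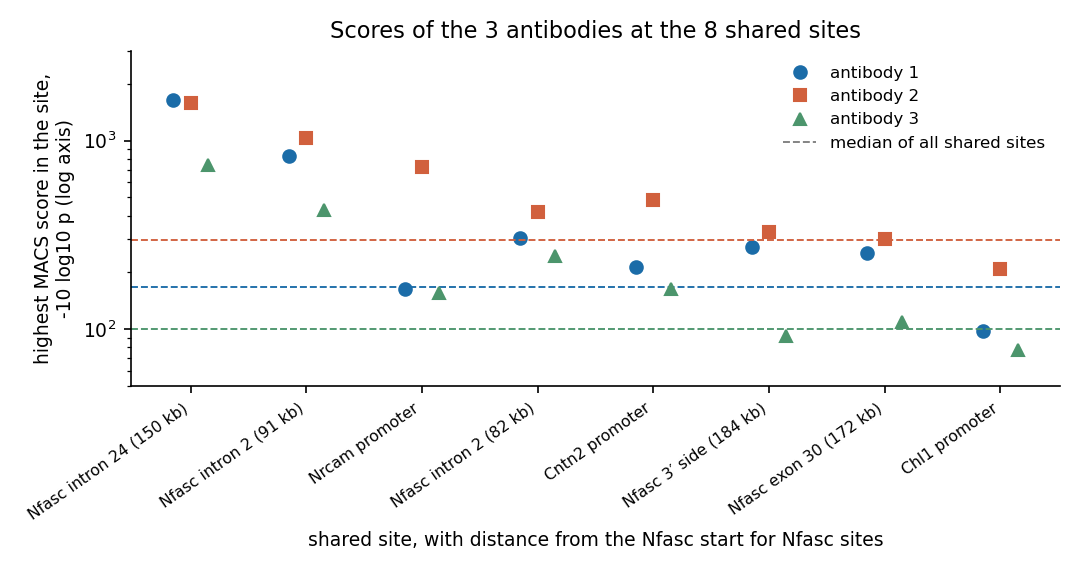
Highest MACS score of each antibody (y axis, minus 10 log10 p, log scale) at the 8 shared sites, ordered by summed score, with dashed lines for the median of each antibody over all shared sites. The site in intron 24 of Nfasc and the stronger site in intron 2 have the highest scores of every antibody, and the Chl1 site lies below the medians of all 3 antibodies.

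For each site, the E-boxes in its central 200 bp were set beside those in 200 bp windows 2000 bp beyond its edges. The 16 sites held 2.00 E-boxes on average against 1.19 in their flanks, and all merged sites 1.99 against 1.13. For the 8 shared sites the mean was 1.62 against 1.38 in the flanks, below the 2.44 against 1.15 of all shared sites. The flanks of these few sites varied with their distance, and windows 1000 bp away held 0.875, so that the ratio of centre to flank was 1.18 with the former and 1.86 with the latter. The central window held an E-box at 5 of the 8, compared with 89.3% of all shared sites. The exceptions were the sites at the starts of Nrcam and Chl1 and the site beyond the end of Nfasc. At the 8 member sites that were not shared, the mean was 2.38 against 1.00, and at all such merged sites 1.90 against 1.13.

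The window within the site also changed this comparison. Over the stretch covered by the peaks of all 3 antibodies, a choice made after the values were seen, 7 of the 8 shared sites held an E-box, as did 94.4% of the 2071 shared sites with such a stretch. The Chl1 site was the one without. The stretch held 3.75 E-boxes on average at the 8 sites and 3.34 at all shared sites. It was also longer, with a median of 478 bp against 273 bp, and per 100 bp the 8 sites held 0.804 E-boxes and all shared sites 1.11. At Nrcam and beyond the end of Nfasc, the E-boxes lay more than 100 bp from the midpoint on either side.

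Of the forms of the E-box, CAGATG and CAGCTG were the commonest in the centres of all shared sites, with 33.4% and 25.1% of 5095 E-boxes. In the centres of the 8 shared sites, 5 of 13 E-boxes were CAGATG and 2 were CAGCTG. At least 1 of these forms was present in the central 200 bp of 4 of the 8 sites, against 76.8% of all shared sites. The number of E-boxes in the central 200 bp did not order the sites by score. The site of antibody 3 alone in intron 27 of Nfasc had 5 E-boxes at its centre, with a score of 55.55, and the strongest site had 2. Likewise, the Cntn5 peak over the first exon had 5 E-boxes with a score of 57.72. Other weak sites held few at their centres, with 1 at each single-antibody site of Chl1 and 0 at the Cntn5 site in intron 1. The window mattered here too. Over the stretch covered by all 3 antibodies, the strongest site held 7, the most of the 8 shared sites. There the second strongest held 3 and the Chl1 site, with the lowest score, 0. Most E-boxes of these genes lay outside any site, as did most of their sequence. Nfasc had 1192 in its span of 197108 bp and 45 in its 9 sites, which cover 5422 bp. Cntn5 had 6771 in its span of 1263885 bp and 5 in its sites, which cover 343 bp.

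**Figure D5:**
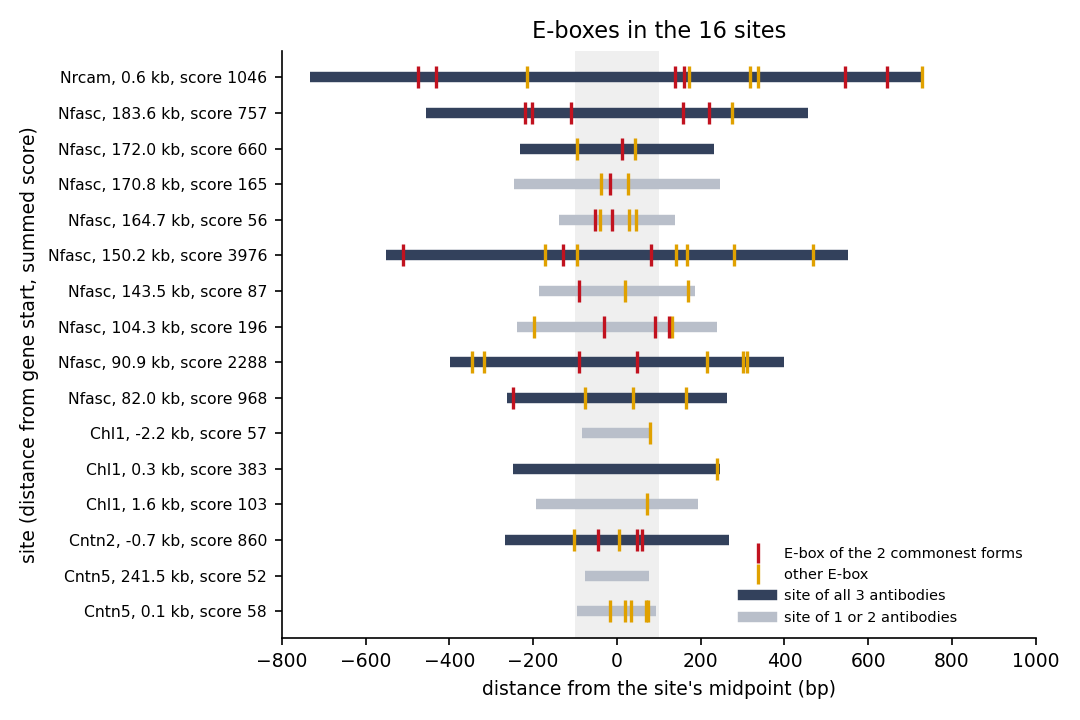
E-boxes (vertical ticks) in the 16 sites (horizontal bars, to scale), by distance from the midpoint of the site (x axis, bp), with the distance from the gene start and the summed score of each site on the y axis and the central 200 bp shaded. Red ticks are CAGATG and CAGCTG. The shaded window holds no E-box at the Nrcam site, the shared Chl1 site and the Nfasc site 183556 bp from the gene start.

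The partners of these proteins were examined in the same way, as a list of 30 genes chosen for their known roles. Sites were found at 17 and shared sites at 9 of the 30, and the shares at genes of similar span correspond to 17.6 and 5.48. The 30 genes held 42 sites and 11 shared sites against 46.7 and 7.98 at genes of similar span. Among the 10 cytoskeletal anchors, which include the ankyrins and spectrins, 7 had a site and 3 a shared site, with 15 sites and 4 shared sites against 11.8 and 2.06 at genes of similar span. The genes with a shared site were Ank1 and Ank2, ankyrins that bind L1 family proteins, with 1 shared site each, and Ezr, which encodes ezrin, with 2. Of the 7 contactin-associated genes, which encode the Caspr proteins, Cntnap2 alone had any site, with 6 sites and 2 shared sites in a span of 2265 kb. The 7 genes together held 6 sites and 2 shared sites, against 18.1 and 2.94 at genes of similar span.

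Of 7 membrane partners, 5 had a site, and Ncam1, the neural cell adhesion molecule, had a shared one with a summed score of 1415.09. This group held 9 sites and 1 shared site, against 10.1 and 1.85 at genes of similar span. Of 4 extracellular ligands, Ncan (neurocan) and Tnr (tenascin-R) had 1 shared site each, and the other two had no site; the group held 8 sites and 2 shared sites, against 4.24 and 0.726. Both cytoplasmic partners had a shared site: Fyn, a kinase that acts downstream of L1 family and contactin proteins, and Numb, an endocytic adaptor that binds L1. Their sites summed to scores of 1931.48 and 416.79, and the pair held 4 sites and 2 shared sites, against 2.35 and 0.400 at genes of similar span.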

How the data were processed

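Per the methods of the study, the authors mapped 50 bp single-end reads to mm10 with Bowtie, and MACS peaks were called separately per antibody with the GFP library as control. The deposited peak lists hold 1 MACS score for each peak, log10 p times minus 10, and the deposited table of shared sites, made by the authors, holds for 2051 of its 2071 sites the sum of those scores. From these, peaks sharing at least 1 bp were merged, sites were placed on GENCODE M21 gene models of GRCm38, and E-boxes were counted in the RefSeq GRCm38.p6 sequence. Summed scores are not the p of a single test. No test was made, since the groups hold no replicates beyond the antibodies. The members, the partner list, the windows and the rule for naming genes (every member with every site, and every partner with a shared site) were chosen with earlier results of these data known. Which sequences to print was decided after their values were seen. The procedures were tested on simulated data. Alternatives concerned the span, the score threshold, the overlap, the windows and leaving out each antibody. Python 3.11.15, numpy 2.4.6, pandas 2.3.3 and matplotlib 3.10.9 were used.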

Additional observations from a re-analysis of the deposited data

How the results depend on the processing

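The counts of member genes with a site (4 to 5) and with a shared site (3 to 4), of sites (11 to 24) and of sites per 100 kb (0.256 to 0.470) stayed within 1.5 times the values reported under every alternative. The shared site of Cntn2 was lost with the gene body alone, the sites of Cntn5 and the shared call of Chl1 with peaks of at least 100 (under both, the Nfasc site beyond the gene end also lost its place among the shared sites, and 6 of 8 remained), and the span plus 50 kb gave Cntn2 6 sites that also lie in the span of Nfasc. The 24 sites counted gene by gene with that span, and the 0.470 per 100 kb, thus count these sites again, and the distinct sites were 18, with 8 shared. Distinct shared sites, 8 as reported, numbered 6 to 10 over the alternatives. With 1 antibody left out, a shared site needed a peak of only the other 2. The 10 without antibody 3 thus include the Nfasc sites of antibodies 1 and 2 in introns 29 and 4. E-boxes per member site, 2.00 in the central 200 bp, were 3.06 in the central 400 bp, 4.31 in whole sites and 0.812 for CAGCTG or CAGATG alone, and ranged from 1.80 to 2.33 when 1 antibody was left out. Per shared member site, 1.62 became 3.00, 5.75 and 0.875 under the same alternatives and 3.75 in the stretch covered by all antibodies, and ranged from 1.75 to 1.80 without 1 antibody. Wider windows hold more E-boxes by construction, and flanks 1000 bp away, which held 0.875, raised the ratio of centre to flank at shared member sites from 1.18 to 1.86. Without antibody 2, Chl1 kept 1 of its 3 sites. Read depth is unknown, and a gene without a peak may hold sites under the threshold. No paired analysis was possible because the results come from no test.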
